A study of Mus musculus with 40 samples.

Results

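Macrophages make and take up cholesterol and fatty acids under the control of SREBP transcription factors, and the mRNAs of this programme were followed here in mouse bone marrow-derived macrophages (BMDMs) given LPS, the complex I inhibitor piericidin A, or both. The genes were taken by name, as 32 known SREBP targets and regulators, chosen with earlier results of these data known, although the rule itself uses no measured value. The sterol branch held 21 genes and the fatty acid branch held 11. All 32 were found by their Ensembl identifiers among the 43430 genes of the count table, and all 32 passed the filter on low counts that left 11853 genes for testing.

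BMDMs came from 5 WT and 5 NDI1 mice, males and females of 8 to 14 weeks, and the cells of each mouse were split into 4 cultures, which gave 8 groups of 5 libraries. The labels give the strain as C57/Bl6, and the methods describe the NDI1 line as mixed C57Bl/6J/N with littermate controls. Both genotypes carry VAV-Cre, a Cre recombinase driven by the Vav1 promoter and active in hematopoietic lineages. NDI1 mice also carry a floxed-stop construct in the Rosa26 locus that expresses NDI1, the NADH dehydrogenase of Saccharomyces cerevisiae. This single-subunit yeast enzyme can oxidize NADH in cells whose own complex I is inhibited, since piericidin A does not act on it. It pumps no protons itself, but the electrons it passes on can still reach complexes III and IV. The 4 treatments were none (U), 100 ng/mL ultrapure LPS for 4 h (L), 500 nM piericidin A (P), and the same piericidin A dose started 30 min before the same LPS treatment (PL). How long the P cultures were exposed is not stated separately. All cultures had grown in M-CSF medium that contained serum, methyl pyruvate and uridine. A BMDM culture is a mixed preparation that was not sorted, and reads from the NDI1 transgene were not analysed here.

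SREBP-2, encoded by Srebf2, drives chiefly the genes of cholesterol synthesis and uptake, and SREBP-1, encoded by Srebf1, drives chiefly those of fatty acid synthesis. Both are made as precursors in the endoplasmic reticulum (ER) membrane, bound to the escort protein SCAP. When ER sterol is low, SCAP carries the precursor to the Golgi, where the proteases encoded by Mbtps1 and Mbtps2 release the active factor. When ER sterol is high, INSIG proteins hold SCAP and its cargo in the ER. Insig1 is itself a target of SREBP. In macrophages the same pathway adjusts membrane lipids during inflammatory activation. Oxysterols hold SREBP precursors in the ER, and the LXR receptors that they activate induce Srebf1 and cholesterol export.

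Libraries held 6950748 to 13552070 counts, with a median of 10361773.5. The values below are normalized counts (CPM, where the counts of a library are put on one common total) after scaling by edgeR's TMM factors, and a log2 fold change was called where its adjusted p (edgeR quasi-likelihood test, Benjamini-Hochberg adjustment over the 11853 genes) was under 0.05. Values in a series are given in the order of WT mice 449, 452, 453, 496 and 520 or of NDI1 mice 447, 460, 461, 503 and 521. The cell type label was checked against 6 macrophage markers, all of which passed the filter, with a summed level of 5304 to 9186 CPM per library, while 4 adipocyte markers had none tested and a summed level of at most 0.405 CPM. Summed levels over all libraries were 2.23 to 14.4 CPM for 4 T cell markers, 0 to 13.9 CPM for 4 B cell markers, and at most 6.58 CPM for 3 mast cell and 1.25 CPM for 3 erythroid markers. WT mouse 496 and NDI1 mouse 503 stood apart from the other mice of their genotype on the second principal component of all tested genes in every treatment (35.3 to 72.8 and 28.1 to 30.6, against −26.3 to 13.6 in the other 8 mice). The same mice had the highest summed level of 5 neutrophil markers (4 passed the filter) in every group, 190.0 to 1157 CPM in mouse 496 and 169 to 300 CPM in mouse 503. Counts of called members without these mice are given beside the main comparisons.

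The promoters of 25 of the 32 genes could be matched in RefSeq sequence of GRCm38.p6, the build of the mapped reads (mm10). They were searched from 250 bases before to 50 bases after the start site, on both strands, for the CCAAT box (letters CCAAT) that binds NF-Y and the GC box (letters GGGCGG) that binds Sp1, since both factors act beside SREBP. Shares are of genes, and a gene with more than 1 promoter counts where any of them holds the letters. A CCAAT box lay at 16 of 17 sterol genes (94.1%) and 4 of 8 fatty acid genes (50%), against 41.1% of the 27025 genes with a promoter. A GC box lay at 16 of 17 sterol genes (94.1%) and 4 of 8 fatty acid genes (50%), against 38.2% of all. The canonical sterol regulatory element, searched as TCACNCCAC, lay only in the Hmgcs1 promoter among the members, 137 bases before the start, and at 1.44% of all genes. The E-box (letters CACGTG), which SREBP can also bind, lay at 4 of 17 sterol genes (23.5%), Insig1 among them, at 0 of 8 fatty acid genes, and at 8.09% of all. A match describes the letters of the window and not a bound site. The 250 bases before the start are printed for Hmgcs1 and Cyp51, which fell with piericidin A under LPS in WT cells, for Insig1, which rose, and for 1 fatty acid gene, with CCAAT boxes on either strand (CCAAT or ATTGG) and the sterol regulatory element in capitals.
Hmgcs1 (chr13:119690101-119690350, plus strand): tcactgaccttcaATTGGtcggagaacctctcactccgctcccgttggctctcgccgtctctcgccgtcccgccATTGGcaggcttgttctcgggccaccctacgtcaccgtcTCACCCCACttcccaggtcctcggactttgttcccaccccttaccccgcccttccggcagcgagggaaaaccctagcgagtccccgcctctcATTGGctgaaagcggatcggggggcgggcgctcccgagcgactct
Cyp51 (chr5:4104698-4104947, minus strand): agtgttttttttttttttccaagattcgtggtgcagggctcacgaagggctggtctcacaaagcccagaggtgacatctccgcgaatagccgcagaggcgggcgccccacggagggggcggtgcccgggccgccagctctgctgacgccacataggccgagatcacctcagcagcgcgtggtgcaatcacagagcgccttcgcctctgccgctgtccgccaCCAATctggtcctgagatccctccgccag
Insig1 (chr5:28071162-28071411, plus strand): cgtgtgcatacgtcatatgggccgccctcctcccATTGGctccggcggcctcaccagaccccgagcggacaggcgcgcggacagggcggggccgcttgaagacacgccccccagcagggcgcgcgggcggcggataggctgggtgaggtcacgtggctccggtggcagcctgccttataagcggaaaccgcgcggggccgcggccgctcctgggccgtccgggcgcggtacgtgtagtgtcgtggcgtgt
Fasn (chr11:120824548-120824797, minus strand): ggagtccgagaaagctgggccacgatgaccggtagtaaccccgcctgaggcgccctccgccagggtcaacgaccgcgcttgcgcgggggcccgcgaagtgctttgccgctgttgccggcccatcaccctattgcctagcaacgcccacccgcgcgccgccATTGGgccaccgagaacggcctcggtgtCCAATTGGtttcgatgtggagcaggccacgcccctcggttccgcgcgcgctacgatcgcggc
Hmgcs1 holds 3 CCAAT boxes and the sterol regulatory element in this stretch, Cyp51 and Insig1 hold 1 CCAAT box each, and Fasn holds 3 CCAAT boxes, of which the last pair overlap in opposite orientations.

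In untreated WT cells, levels per length of exon ran from 25.8 CPM per kb for Acly, which makes cytosolic acetyl-CoA from citrate, to 0.217 CPM per kb for Elovl6, a fatty acid elongase. Hmgcs1, which makes HMG-CoA, followed Acly at 17.6 CPM per kb, and Srebf2 and Insig1 stood at 16.9 and 15.9 CPM per kb. Idi1, Lss and Tm7sf2 were the lowest sterol synthesis enzymes, at 0.841, 1.02 and 0.711 CPM per kb. Elovl6, Fads2 and Scd1, the latter pair desaturases, were the lowest of all members, with 10 to 26 counts a library for Fads2. In the WT PL library of mouse 453 Fads2 had 0 counts, which allows up to 3 counts (0.480 CPM in that library).

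Without piericidin A, no member passed a test between the genotypes. None of the 32 passed the test between untreated NDI1 and WT cells (0% of all tested genes were called, 39 genes had an unadjusted p under 0.05, and DESeq2 called 0 members), and none passed between LPS-treated NDI1 and WT cells (0% of all genes, 141 with an unadjusted p under 0.05, 0 members by DESeq2). The difference of the LPS response between the genotypes also called no member (0% of all genes, 63 with an unadjusted p under 0.05, 0 members by DESeq2). For Cyp51 the interval of the difference between LPS-treated genotypes (95% confidence, log2 scale) was −0.74 to 0.69, and for Insig1 it was −0.89 to 0.82, so the data leave room for differences of that size.

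LPS moved the sterol branch in both directions in WT cells: 8 of 21 genes rose (38.1%) and 3 fell, and in the fatty acid branch 4 of 11 fell and none rose. Among all tested genes 31.5% were called higher and 31% lower with LPS. The shares that rose in the sterol branch and fell in the fatty acid branch lie near this background. The share of sterol genes that fell (14.3%) and that of fatty acid genes that rose (0 of 11) lie below it. The median log2 fold change was 0.56 in the sterol branch, −0.35 in the fatty acid branch and −0.0076 over all tested genes. In these bulk samples, fewer cells of a type and less RNA per cell cannot be told apart. The summed level of 4 dendritic cell markers, of which 3 were tested, was 0.652 to 2.70 CPM in untreated WT cells and 6.73 to 8.93 CPM with LPS, without overlap, and 1.28 to 3.76 and 3.62 to 10.4 CPM in NDI1 cells, with overlap. No marker was at 0 in a whole WT group, 1 was in NDI1 cells with LPS, and their part in the result was not tested.

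The 8 sterol genes that rose with LPS were Srebf2, Insig1, Acat2, Hmgcs1, Idi1, Fdft1, Cyp51 and Sc5d. Srebf2, encoding SREBP-2, went from 100.3, 148, 102, 101 and 157 CPM in untreated WT cells to 208, 307, 169, 172 and 274 CPM with LPS (log2 fold change 0.90 ± 0.18 (SE), adjusted p = 3.69e-05). Its groups did not overlap, and it was higher in 5 of 5 mice. Idi1, the isomerase that supplies the activated isoprene unit for farnesyl diphosphate synthesis, went from 1.71, 3.86, 2.23, 1.35 and 5.58 CPM to 5.99, 13.2, 6.36, 5.21 and 18.9 CPM (1.73 ± 0.48 (SE), adjusted p = 0.00185), higher in 5 of 5 mice, with the highest untreated library just above the lowest LPS library. Hmgcs1 rose by 1.13 (adjusted p = 9.23e-04), squalene synthase Fdft1 by 0.99 (0.0063), lanosterol demethylase Cyp51 by 1.06 (0.00937) and sterol desaturase Sc5d by 0.96 (0.00377), each on the log2 scale and in 5 of 5 mice. Insig1, the ER retention factor, rose by 1.15 (adjusted p = 0.0186), a call lost without mouse 449 (adjusted p = 0.0561). The thiolase Acat2 rose by 0.71 in 4 of 5 mice (adjusted p = 0.0319), and over its alternatives the adjusted p ran from 0.0106 to 0.0923, with the call lost without mouse 452, mouse 496 or mouse 520.

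The sterol genes that fell with LPS were 3 enzymes, Dhcr7, Mvd and Mvk. Dhcr7, the 7-dehydrocholesterol reductase of the last steps of cholesterol synthesis, went from 13.04, 11.3, 9.95, 11.6 and 11.7 CPM to 3.40, 2.56, 3.35, 3.70 and 1.67 CPM in WT cells (−1.96 ± 0.24 (SE), adjusted p = 8.67e-09). Every LPS library lay below every untreated library. Mvd, the mevalonate diphosphate decarboxylase, went from 10.7, 16.9, 13.9, 11.0 and 22.3 to 4.36, 7.90, 4.91, 3.84 and 11.4 CPM (−1.22 ± 0.32 (SE), adjusted p = 0.00126), and mevalonate kinase Mvk from 7.09, 7.72, 6.02, 6.84 and 8.37 to 3.27, 3.95, 5.58, 3.57 and 6.66 CPM (−0.65 ± 0.19 (SE), adjusted p = 0.00268). Both were lower in 5 of 5 mice, with overlapping groups. The 4 cultures of a mouse can also be compared with each other, in a fit with the mouse as a block. With the block, Fdps, Msmo1 and Hsd17b7 were also called higher and Lss and Stard4 lower, so the sterol counts became 11 higher and 5 lower (36.4% and 35.6% of all genes).

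In the fatty acid branch the largest fall among the members was that of Lpin1, a phosphatidate phosphatase on the way to triglycerides. It went from 28.4, 36.0, 27.9, 33.7 and 17.3 CPM in untreated WT cells to 0.953, 0.961, 0.446, 0.960 and 0.757 CPM with LPS (−5.12 ± 0.36 (SE), adjusted p = 7.64e-15), the latter from 4 to 9 counts a library. Scd2, a stearoyl-CoA desaturase, went from 16.6, 19.9, 7.72, 8.51 and 11.6 to 3.27, 5.66, 2.34, 5.62 and 2.12 CPM (−1.75 ± 0.38 (SE), adjusted p = 1.42e-04). Fads1, the delta-5 desaturase of polyunsaturated fatty acids, went from 73.5, 73.8, 63.0, 72.4 and 79.0 to 29.3, 27.1, 29.2, 18.9 and 21.5 CPM (−1.52 ± 0.14 (SE), adjusted p = 3.67e-12). For all 3 genes the LPS and untreated libraries did not overlap. Fatty acid synthase Fasn fell by 1.18 (adjusted p = 6.67e-09), again with no overlap, from a range of 42.4 to 55.3 CPM to one of 18.3 to 27.4 CPM. Srebf1 was measured at 79.9 to 85.0 CPM before and 79.8 to 98.0 CPM after LPS (0.085 ± 0.13 (SE), adjusted p = 0.584), and Acly, Acaca, Acss2, Scd1, Elovl6 and Fads2 did not pass the test. With the block, Acaca was also called lower and Elovl6 higher.

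In NDI1 cells LPS moved these genes in the same directions: 7 sterol genes rose and 3 fell, and 4 fatty acid genes fell (31.5% and 31.2% of all genes higher and lower). These 14 calls were all among the 15 of the WT cells, in the same directions, and the remaining gene, Acat2, had a log2 fold change of 0.61 ± 0.29 (SE), adjusted p = 0.0632. Srebf2 went from 149, 124, 93.6, 106 and 129 to 285, 286, 206, 196 and 208 CPM and Dhcr7 from 10.3, 11.3, 10.3, 11.6 and 8.80 to 3.95, 3.16, 3.38, 4.28 and 1.99 CPM, both without overlap, with log2 fold changes of 0.97 and −1.64. In NDI1 cells the Insig1 call was lost without mouse 447, 460, 461 or 521, the Mvd call without mouse 521 and the Fdft1 call without mouse 447. Without mice 496 and 503, LPS raised 8 sterol genes and lowered 4 in WT cells and raised 7 and lowered 4 in NDI1 cells, with 4 fatty acid genes lower in each genotype. The shares of all genes called without these mice are not given. The block raised the NDI1 calls to 11 sterol genes higher and 5 lower and 2 fatty acid genes higher and 4 lower (36.4% and 36% of all genes).

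Piericidin A alone changed 3 of the 32 genes in WT cells: Insig1 rose, and Fasn and Acaca, the acetyl-CoA carboxylase of the committed step of fatty acid synthesis, fell. The background was 7.79% of all genes higher and 7.05% lower. Insig1 went from 29.7, 59.5, 31.4, 42.1 and 83.8 CPM untreated to 210.4, 94.2, 82.2, 294 and 656 CPM with piericidin A (2.44 ± 0.44 (SE), adjusted p = 1.76e-04). It was higher in 5 of 5 mice, but the size differed: mice 449, 496 and 520 reached at least 210.4 CPM, while mice 452 and 453 stayed at 94.2 and 82.2 CPM, near the highest untreated library. Fasn went from 50.9, 48.7, 42.4, 50.1 and 55.3 to 33.7, 33.6, 31.7, 27.4 and 25.1 CPM (−0.70 ± 0.14 (SE), adjusted p = 6.53e-04) without overlap. Acaca went from 11.6, 13.6, 12.6, 14.5 and 9.71 to 9.69, 10.2, 9.05, 6.21 and 6.16 CPM (−0.58 ± 0.18 (SE), adjusted p = 0.0255), lower in 5 of 5 mice, and its call was lost without mouse 453, 496 or 520 (adjusted p up to 0.193 over the alternatives).

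The other sterol genes mostly lay a little below untreated cells, with a branch median of −0.32 on the log2 scale against −0.00045 over all genes. Cyp51, for example, went from 25.7, 40.1, 27.3, 26.5 and 63.8 to 16.0, 25.9, 17.1, 11.1 and 31.9 CPM, lower in 5 of 5 mice, with a log2 fold change of −0.85 ± 0.36 (SE), adjusted p = 0.107. With the mouse as a block, 18 members were called in place of 3. In that fit 8 sterol genes were lower (Hmgcs1, Fdps, Sqle, Lss, Cyp51, Hsd17b7, Dhcr7 and Stard4, with log2 fold changes of −0.85 to −0.40), and Insig1 and Mvd were higher. In the fatty acid branch 6 genes were lower (Srebf1, Fasn, Scd2, Acaca, Acly and Lpin1, −0.88 to −0.27), and Scd1 and Acss2 were higher. The blocked background was 17.2% of all genes higher and 16.9% lower. Without mice 496 and 503, and with no block, 2 members were called, and the shares of all genes in that fit are not given.

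In NDI1 cells piericidin A alone called no member and no gene at all (0% of all genes; 58 genes had an unadjusted p under 0.05, and DESeq2 called 0 members). Insig1 stood at 56.2, 39.0, 34.4, 48.8 and 76.6 CPM untreated and 52.8, 43.9, 31.4, 44.0 and 63.0 CPM with the drug, a log2 fold change of −0.12 ± 0.42 (SE), adjusted p = 1. It was lower in 4 of 5 NDI1 mice and higher in 1, and the groups overlapped over most of their range. The difference between the genotypes in the Insig1 response was −2.55 ± 0.60 (SE), adjusted p = 0.0209 (NDI1 minus WT, log2 scale), the only member called in this test (1.1% of all genes lower). That call was lost in 8 of 17 alternatives, namely without mouse 447, 449, 460, 461, 496, 503 or 521 and without both mice 496 and 503 (adjusted p up to 0.169). It held with the block (adjusted p = 1.57e-05), in which Fdps, Cyp51 and Fasn were also called, as less lowered in NDI1 cells (3.81% of all genes higher and 5.15% lower). Compared directly under piericidin A, Insig1 was lower in NDI1 than in WT cells (−2.50 ± 0.44 (SE), adjusted p = 1.93e-04), with no overlap between the groups against 4.31% of all genes lower. No other member was called in this fit, and DESeq2 also called Fasn, as higher in NDI1 cells (0.42, adjusted p = 0.0339).

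**Figure D1:**
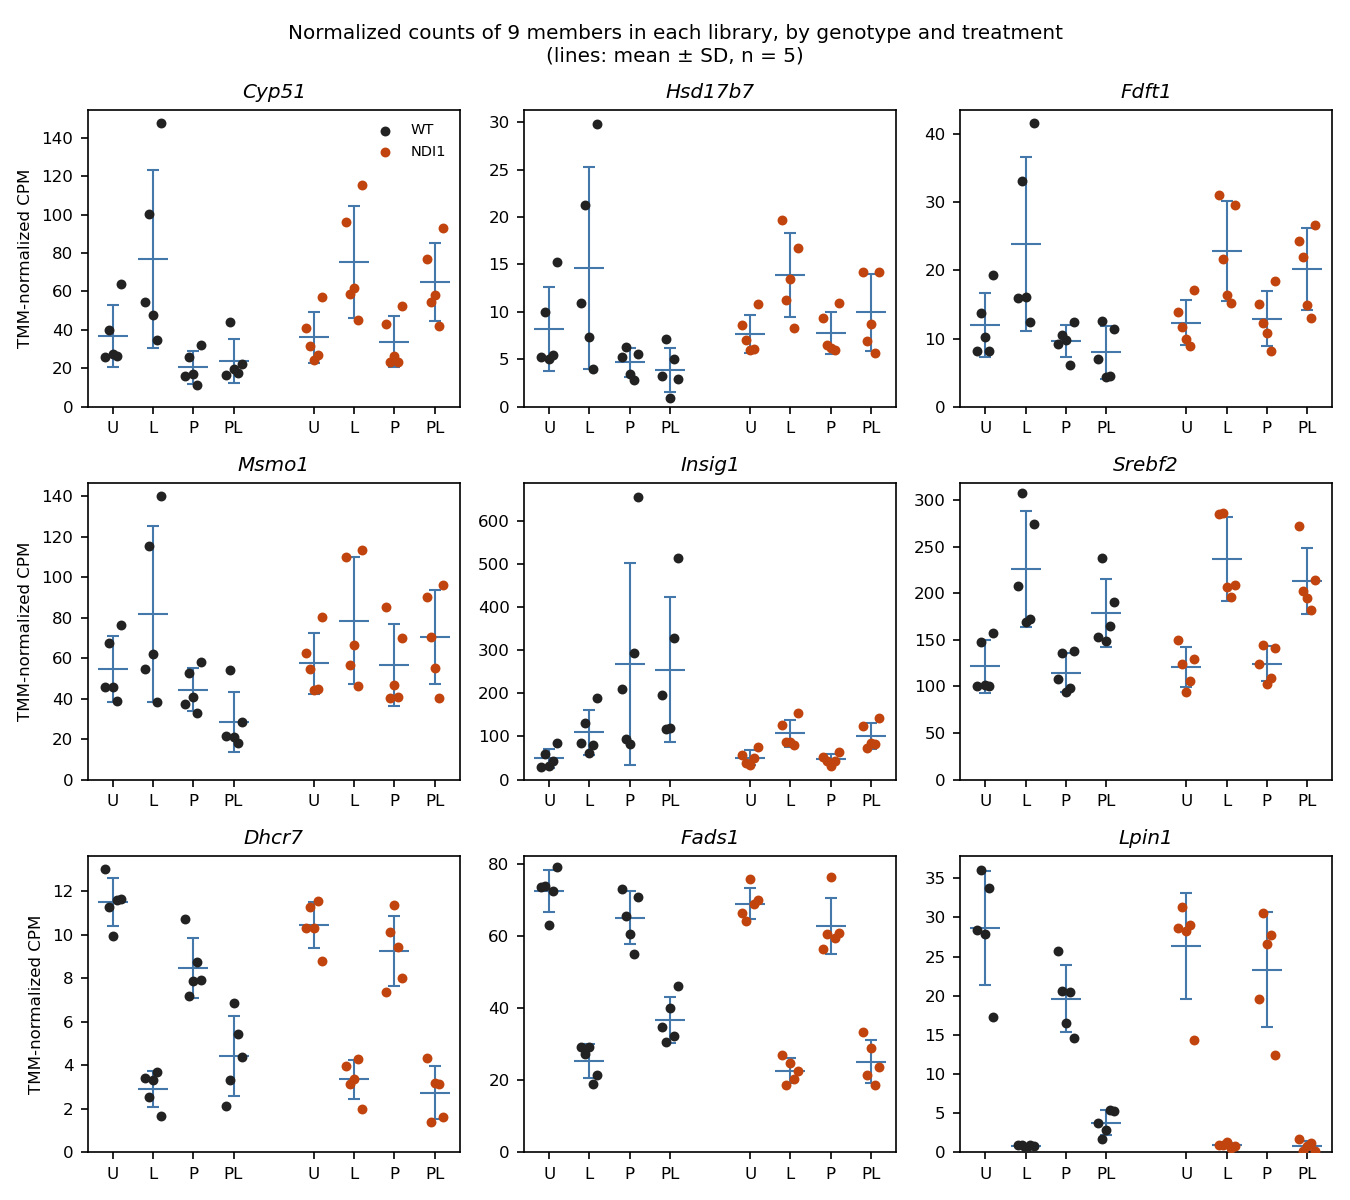
TMM-normalized CPM (y axis, linear, from 0) of 9 members in every library by treatment (x axis: U untreated, L LPS, P piericidin A, PL both), black points WT and orange points NDI1, in mouse order within a column, with lines for the mean ± SD of 5 mice. The sterol enzymes in the top row and Msmo1 are mostly lower in PL than in L in WT cells, while the NDI1 columns for L and PL overlap. The highest Insig1 values, up to 656 CPM, are in the P and PL columns of WT cells, and Lpin1, near 0 with LPS, lies between 1.66 and 5.44 CPM in WT PL, where the lowest library is below the highest NDI1 PL library, at 1.77 CPM.

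With LPS present, piericidin A lowered a large part of the sterol branch in WT cells. Of 21 sterol genes, 11 fell (52.4%) and 1 rose, against 8.92% lower and 7.81% higher among all tested genes. Of the 18 synthesis enzymes 10 fell, and the sterol transfer protein Stard4 was the other gene that fell. The branch median was −0.83 on the log2 scale, against −0.05 in the fatty acid branch and −0.016 over all tested genes. Of 11 fatty acid genes 2 rose, Lpin1 and Fads1, and none fell. In a fit to the compared libraries alone, 7 sterol genes were called lower and 0 higher and 2 fatty acid genes higher (5.82% of all genes higher and 2.75% lower).

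Hsd17b7 and Cyp51, enzymes of the steps from lanosterol onward, had the largest falls of the branch. Hsd17b7, the ketosteroid reductase of C4 demethylation, went from 10.9, 21.3, 7.36, 3.98 and 29.8 CPM with LPS to 3.22, 7.17, 0.961, 5.06 and 2.93 CPM with LPS and piericidin A (−1.90 ± 0.43 (SE), adjusted p = 0.00218). It was lower in 4 of 5 mice, and mouse 496, which had the lowest LPS level, went up slightly. Cyp51 went from 54.3, 100.3, 47.5, 34.9 and 148 to 16.6, 44.1, 19.7, 17.6 and 21.9 CPM (−1.68 ± 0.37 (SE), adjusted p = 0.00168), lower in 5 of 5 mice, with 1 PL library, that of mouse 452, inside the range of the LPS libraries. Msmo1, the methylsterol monooxygenase, went from 54.6, 115, 62.0, 38.1 and 140.2 to 21.4, 54.2, 20.8, 18.1 and 28.5 CPM (−1.52 ± 0.33 (SE), adjusted p = 0.00156), also lower in 5 of 5 mice, with the same mouse as the overlap. Fdft1, which commits farnesyl diphosphate to squalene, went from 15.9, 33.1, 16.1, 12.5 and 41.6 to 6.97, 12.5, 4.32, 4.55 and 11.4 CPM (−1.57 ± 0.33 (SE), adjusted p = 0.00112). The highest PL library only just exceeded the lowest LPS library. Of the Fdft1 exon bases 18.3% lie under Ctsb on the opposite strand, and whether the counting used strand is not stated in the sources used here, so its level is less certain than that of Cyp51.

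Of the enzymes before squalene, Hmgcs1, Pmvk, Idi1 and Fdps fell. Hmgcs1 fell by 1.34 on the log2 scale (adjusted p = 0.00157), from 136, 267, 113, 101 and 272 CPM with LPS to 59.9, 136, 51.2, 44.4 and 58.7 CPM with both agents. Idi1 went from 5.99, 13.2, 6.36, 5.21 and 18.9 to 2.01, 8.57, 0.480, 2.28 and 3.59 CPM (−1.53 ± 0.49 (SE), adjusted p = 0.0278), lower in 5 of 5 mice, with as few as 3 counts in the PL library of mouse 453. Farnesyl diphosphate synthase Fdps fell by 1.19 (adjusted p = 0.00625) with no overlap between the groups, and phosphomevalonate kinase Pmvk by 0.54 in 4 of 5 mice (0.0488). Gm43738 shares 26.7% of the Fdps exon bases. Mvk and Mvd, 2 of the 3 enzymes that had fallen with LPS, had log2 fold changes of −0.011 and 0.22 and did not pass the test.

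Squalene epoxidase Sqle fell by 1.08 (adjusted p = 0.016), Sc5d by 0.99 (0.0161) and Stard4 by 1.27 (0.0159), each in 5 of 5 mice. Dhcr7, the third enzyme lowered by LPS, had a positive log2 fold change of 0.58 ± 0.26 (SE), adjusted p = 0.117, while Ebp, Nsdhl and Tm7sf2, also enzymes after lanosterol, lay between −0.094 and 0.082. Insig1 went the other way from the enzymes, from 84.4, 131, 61.2, 80.7 and 189.7 CPM to 197, 117, 119.6, 329.5 and 513 CPM (1.22 ± 0.42 (SE), adjusted p = 0.0423). It rose in 4 of 5 mice and fell in mouse 452, and the groups overlapped.

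The mRNAs of the SREBPs themselves did not pass the test without the block. Srebf2 was at 208, 307, 169, 172 and 274 CPM with LPS and 153, 237, 148, 164 and 191 CPM with LPS and piericidin A (−0.34 ± 0.18 (SE), adjusted p = 0.184). It was lower in 5 of 5 mice and was called only with the block (adjusted p = 0.00399). Srebf1 was at 82.4, 98.0, 86.1, 84.9 and 79.8 and 74.3, 85.9, 89.5, 57.4 and 58.4 CPM (−0.24 ± 0.13 (SE), adjusted p = 0.208, blocked adjusted p = 0.0207).

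**Figure D2:**
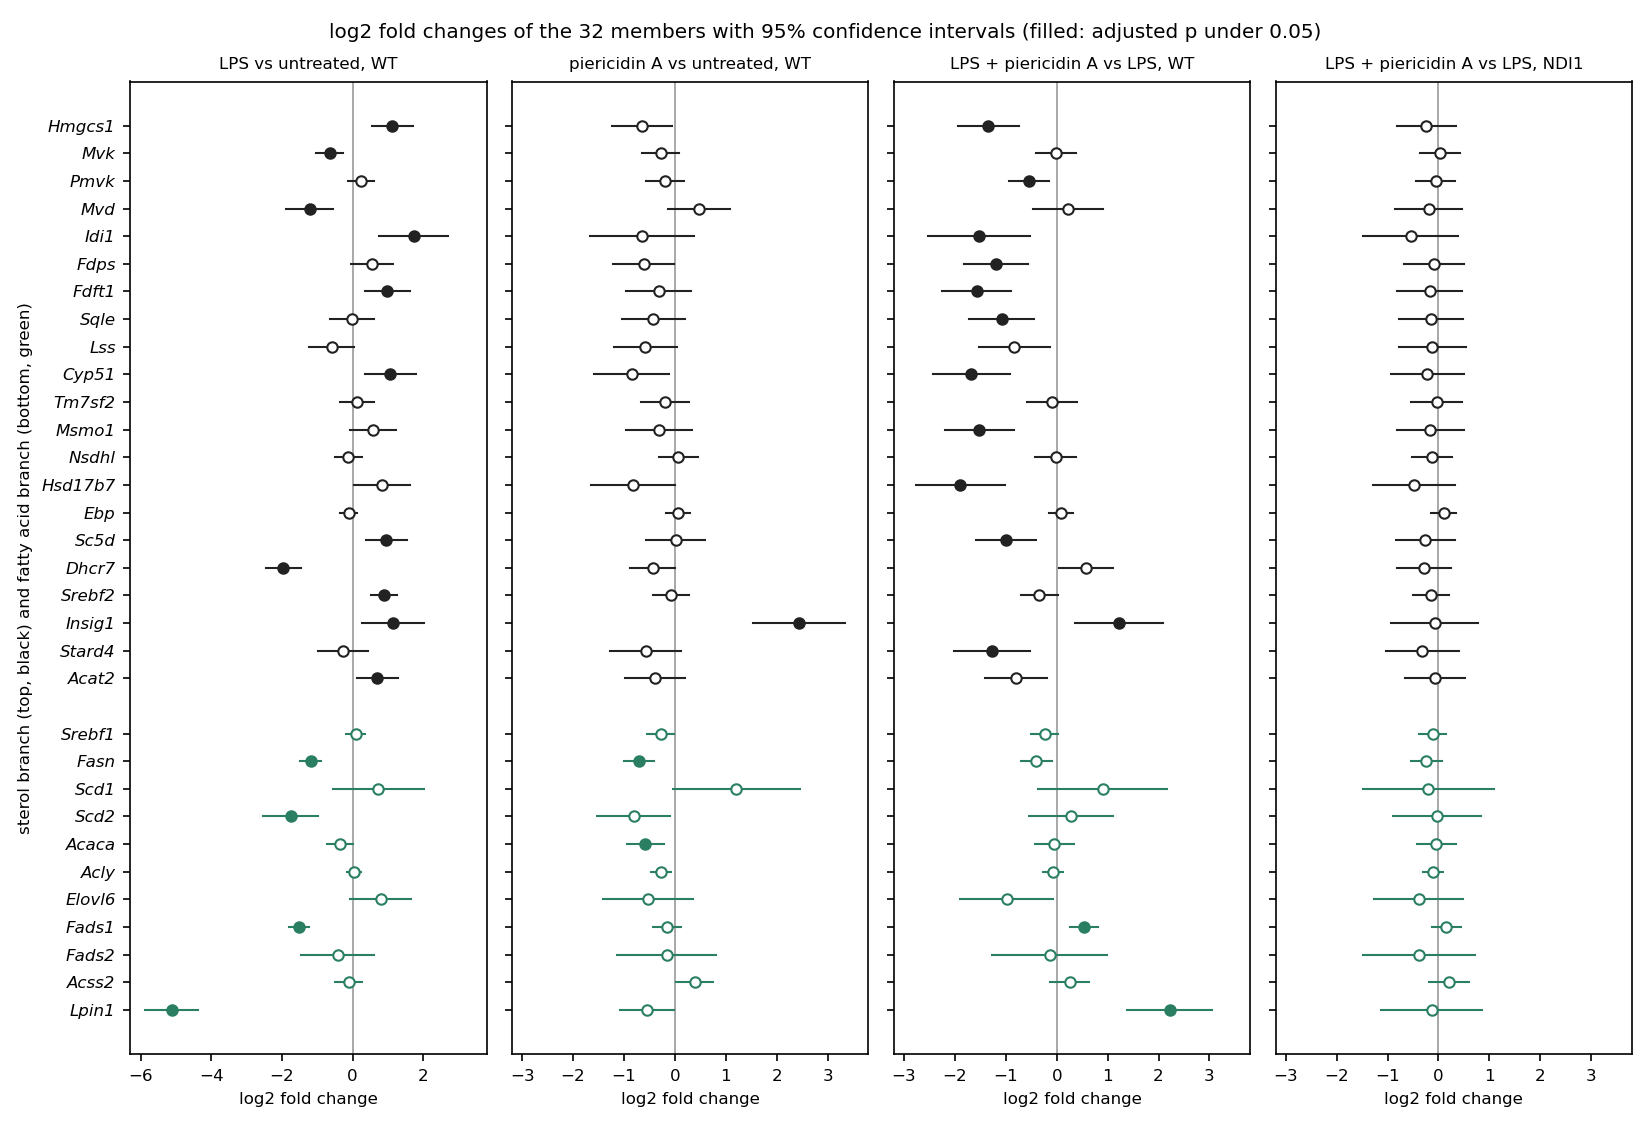
Log2 fold changes (x axis) with 95% confidence intervals of the 32 members (y axis, sterol branch black above, fatty acid branch green below) for LPS, piericidin A, and LPS plus piericidin A against LPS in WT cells, and for the last comparison in NDI1 cells, with filled points where the adjusted p is under 0.05. In the third panel 11 sterol genes are filled to the left of 0 and Insig1 to the right, and in the fourth panel no point is filled.

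The counts rested in part on mouse 520. It had the highest LPS level of Cyp51, Hsd17b7, Fdft1, Idi1 and Msmo1, and the branch median of its own log2 differences (PL minus L) was −1.54, against −0.62, −0.62, −0.42 and −0.37 in mice 449, 452, 453 and 496. Without mouse 520 the count fell to 6 sterol genes lower and 1 fatty acid gene higher, 7 members in place of 14. Calls among all tested genes fell as well, from 8.92% to 3.38% lower and from 7.81% to 3.67% higher. The calls of Idi1, Pmvk, Sqle, Sc5d, Stard4, Insig1 and Fads1 were lost. The adjusted p was then 0.0282 for Cyp51, 0.143 for Sqle, 0.163 for Sc5d, 0.058 for Insig1 and 0.106 for Fads1. With the mouse as a block, which removes each mouse's own level, 14 sterol genes were lower and 1 higher, and 3 fatty acid genes were lower and 3 higher (18.9% of all genes lower and 15.6% higher). Without mouse 520 that fit called 12 sterol genes lower, all among those 14, and 1 higher (12.8% of all genes lower and 10.7% higher). The sterol genes added by the block were Lss, Acat2 and Srebf2 (−0.78 to −0.32), and the fatty acid genes added were Srebf1, Fasn and Elovl6 (lower) and Scd1 (higher).

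Without mice 496 and 503, a fit whose shares of all genes are not given, the counts were 10 sterol genes lower and 0 higher, and 1 fatty acid gene lower and 2 higher. Insig1 then had a log2 fold change of 1.03 (adjusted p = 0.219), and its call was lost also without mouse 449 alone, 496 alone or 520 alone. Idi1 was lost without mouse 449, 453, 496 or 520, and Pmvk without mouse 449, 496 or 520. The summed neutrophil markers had a median of 24.2 CPM (14.6 to 426) in WT cells with LPS and 54.4 CPM (31.1 to 1157) with both agents, with mouse 496 the highest in both and no marker at 0 in a whole group. The 5 stromal markers, of which 3 were tested, had a median of 2.73 CPM (1.34 to 58.3) with LPS and 6.57 CPM (1.92 to 103.8) with both. The part of these cells in the result was not tested beyond leaving out the mice.

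The 2 fatty acid genes that rose, Lpin1 and Fads1, had both fallen with LPS. Lpin1 went from 0.953, 0.961, 0.446, 0.960 and 0.757 CPM with LPS to 3.75, 1.66, 2.88, 5.44 and 5.32 CPM with both agents (2.22 ± 0.41 (SE), adjusted p = 2.73e-04). The groups did not overlap, yet every PL library remained far below the untreated range of 17.3 to 36.0 CPM. Fads1 went from 29.3, 27.1, 29.2, 18.9 and 21.5 to 34.7, 30.6, 40.0, 32.1 and 46.0 CPM (0.54 ± 0.14 (SE), adjusted p = 0.00594), higher in 5 of 5 mice without overlap. Fasn lay at 19.1, 25.1, 18.3, 19.2 and 27.4 CPM and 17.8, 16.0, 14.4, 18.2 and 15.8 CPM, without overlap and lower in 5 of 5 mice, but its log2 fold change of −0.40 did not pass the test (adjusted p = 0.0577). It passed with the block (0.0127), with DESeq2 (0.0488) and without mice 496 and 503 (0.0439). Scd2 lay at 3.27, 5.66, 2.34, 5.62 and 2.12 and 7.37, 5.12, 4.16, 3.67 and 2.93 CPM, with overlapping groups (0.28 ± 0.40 (SE), adjusted p = 0.672).

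Whether piericidin A acted differently with LPS than without it was tested in WT cells as the difference of its effects. Lpin1 (2.77 ± 0.48 (SE), adjusted p = 4.55e-04) and Fads1 (0.69 ± 0.19 (SE), adjusted p = 0.0253) were the members called, both with a more positive effect under LPS, against 2.59% of all genes higher. The Fads1 call was lost without mouse 496, without mouse 520, without mice 496 and 503 and with no filter on low counts (adjusted p up to 0.208), and the filter of at least 10 counts in every library left Lpin1 untested. No sterol gene was called without the block. With the block 10 sterol genes had a more negative effect under LPS (Hmgcs1, Fdps, Fdft1, Sqle, Cyp51, Msmo1, Hsd17b7, Sc5d, Insig1 and Stard4, −1.27 to −0.59) and Dhcr7 a more positive one, with Scd2 added in the fatty acid branch (7.95% of all genes higher and 9.48% lower). For Fdft1 the blocked difference was −1.27 (adjusted p = 1.82e-05), for Msmo1 −1.19 (1.35e-04). For Insig1 it was −1.08 (0.0163), a smaller rise under LPS than without it.

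In NDI1 cells, piericidin A under LPS called none of the 32 genes and none of all tested genes (0%; 127 genes had an unadjusted p under 0.05, none of them a member, and DESeq2 called 0 members). The block also called 0 members. Of the 21 sterol genes, 19 had a negative log2 fold change, with a median of −0.15, so the direction of most point estimates was that of WT cells at a smaller size. The share of all tested genes with a negative value is not given. The 21 genes were measured in the same 5 mice and are not independent of each other. Cyp51 went from 95.9, 58.9, 62.0, 45.2 and 115 to 76.8, 54.3, 58.3, 42.0 and 93.2 CPM (−0.22 ± 0.35 (SE), adjusted p = 1). Fdft1 went from 31.1, 21.7, 16.3, 15.3 and 29.6 to 24.4, 22.0, 14.9, 12.99 and 26.7 CPM, and Insig1 from 126, 86.9, 86.3, 80.7 and 154 to 124, 72.2, 85.4, 82.3 and 143 CPM. In all 3 genes the groups overlapped over most of their range, but Cyp51 was lower in each of the 5 mice. The same held for Hmgcs1, Idi1, Sqle, Hsd17b7 and Sc5d, which made 6 of 21 sterol genes lower in 5 of 5 NDI1 mice, against 11 of 21 in WT mice. The share of all tested genes lower in 5 of 5 mice is not given, so these counts have no background. For Hsd17b7, the member with the largest sterol fall in WT cells, the NDI1 value was −0.48 with a 95% confidence interval of −1.28 to 0.32, which takes in falls of a size called in WT cells. Lpin1 lay at 0.988, 0.904, 1.35, 0.535 and 0.820 CPM with LPS and 1.77, 0.234, 0.872, 1.20 and 0.203 CPM with both, from as few as 2 counts a library.

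Medians over the branch for each mouse separated the genotypes under LPS. The sterol median of the PL minus L differences was −0.62, −0.62, −0.42, −0.37 and −1.54 in the WT mice and −0.29, −0.12, −0.13, −0.19 and −0.22 in the NDI1 mice, with no overlap. For piericidin A without LPS it was −0.29, −0.38, −0.17, −0.24 and −0.55 in the WT mice and 0.067, −0.054, 0.067, −0.13 and −0.075 in the NDI1 mice, again without overlap. For LPS alone it ranged from −0.027 to 0.80 in the WT mice and from 0.045 to 0.52 in the NDI1 mice, which overlapped. The fatty acid medians of the PL minus L differences overlapped, from −0.14 to 0.33 in the WT mice and from −0.36 to 0.011 in the NDI1 mice.

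**Figure D3:**
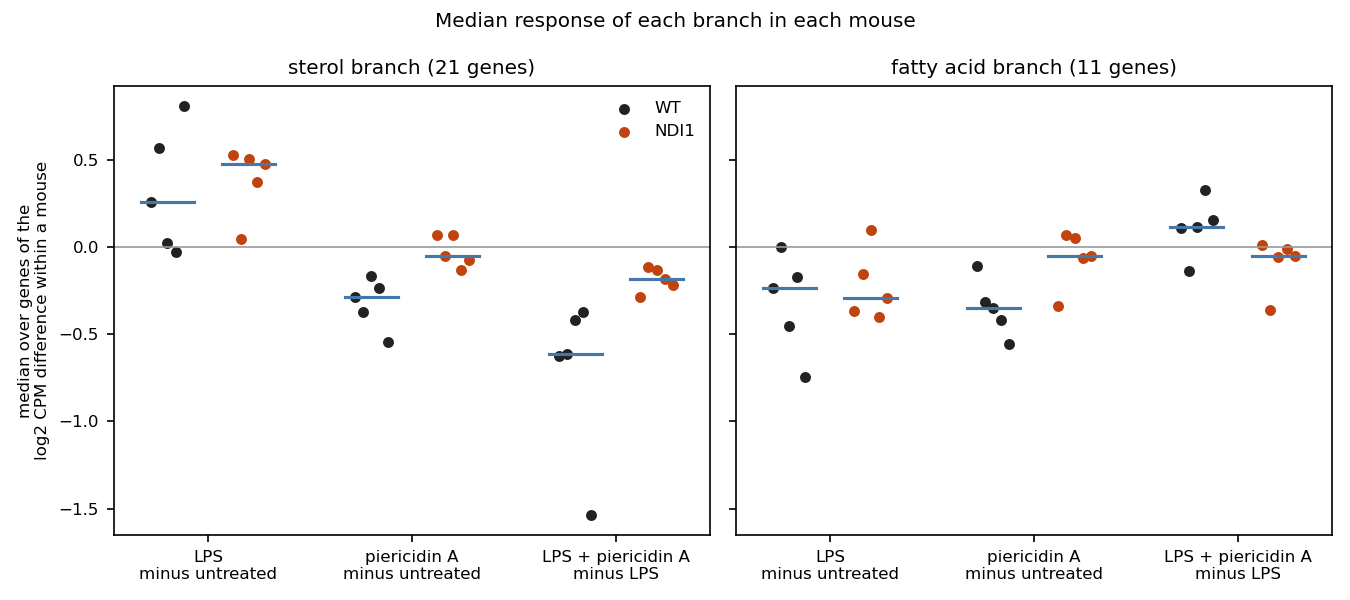
Median over the genes of a branch of the log2 CPM difference within a mouse (y axis) for 3 treatment contrasts (x axis), left the 21 sterol genes and right the 11 fatty acid genes, black WT and orange NDI1, 1 point per mouse, with a bar at the median of the 5 mice. In the left panel all WT points for LPS plus piericidin A minus LPS lie below all NDI1 points, and mouse 520 is the point at −1.54.

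The difference in response between the genotypes was then tested gene by gene. Without the block no member passed (0.979% of all genes called; 10 members had an unadjusted p under 0.05, and DESeq2 called 1 member), and the smallest adjusted p among the members was that of Lpin1, −2.35 ± 0.65 (SE), adjusted p = 0.0667. With the block, 10 sterol genes responded less negatively in NDI1 than in WT cells and Insig1 less positively, and Lpin1 was called lower (4.7% of all genes higher and 4.81% lower). The 10 were Hmgcs1, Idi1, Fdps, Fdft1, Sqle, Cyp51, Msmo1, Hsd17b7, Sc5d and Stard4, with differences of 0.66 to 1.38 on the log2 scale. Fdft1 had the smallest adjusted p, with a blocked difference of 1.36 (adjusted p = 4.29e-05), and Cyp51 differed by 1.38 (1.44e-04). The blocked count of 12 members ran from 7 (without mouse 520) to 12 when 1 mouse was left out, and was 8 without mice 496 and 503. The shares of all genes called in those fits are not given.

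The genotypes were also compared directly under LPS plus piericidin A, in unpaired mice, and 10 members were called. Higher in NDI1 than in WT cells were 7 sterol genes (5.86% of all genes higher), namely Hmgcs1 (1.09), Fdps (1.05), Fdft1 (1.34), Cyp51 (1.44), Msmo1 (1.30), Hsd17b7 (1.35) and Stard4 (1.08), with adjusted p of 0.00656 to 0.0485. Lower in NDI1 cells were Insig1 (−1.33 ± 0.42 (SE), adjusted p = 0.0347), Lpin1 (−2.18 ± 0.40 (SE), adjusted p = 3.33e-04) and Fads1 (−0.54 ± 0.14 (SE), adjusted p = 0.00804), against 6.13% of all genes lower. Fdft1 lay at 24.4, 22.0, 14.9, 12.99 and 26.7 CPM in NDI1 cells and 6.97, 12.5, 4.32, 4.55 and 11.4 CPM in WT cells, and this gene and Stard4 did so without overlap. The Insig1 call was lost without mouse 447, 460, 461, 496, 503 or 520, the Stard4 call without 7 of the 10 mice, the Hsd17b7 call without 447, 449, 453, 461, 520 or 521, the Fdps call without 449, 460, 496 or 521, and the Fads1 call without 520. In fits to these libraries alone, 4 members were called. Without mice 496 and 503, 6 sterol genes were called higher and 2 fatty acid genes lower. The shares of all genes called in these other fits are not given. This comparison and the one against LPS share the WT PL libraries and are not independent of each other.

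**Figure D4:**
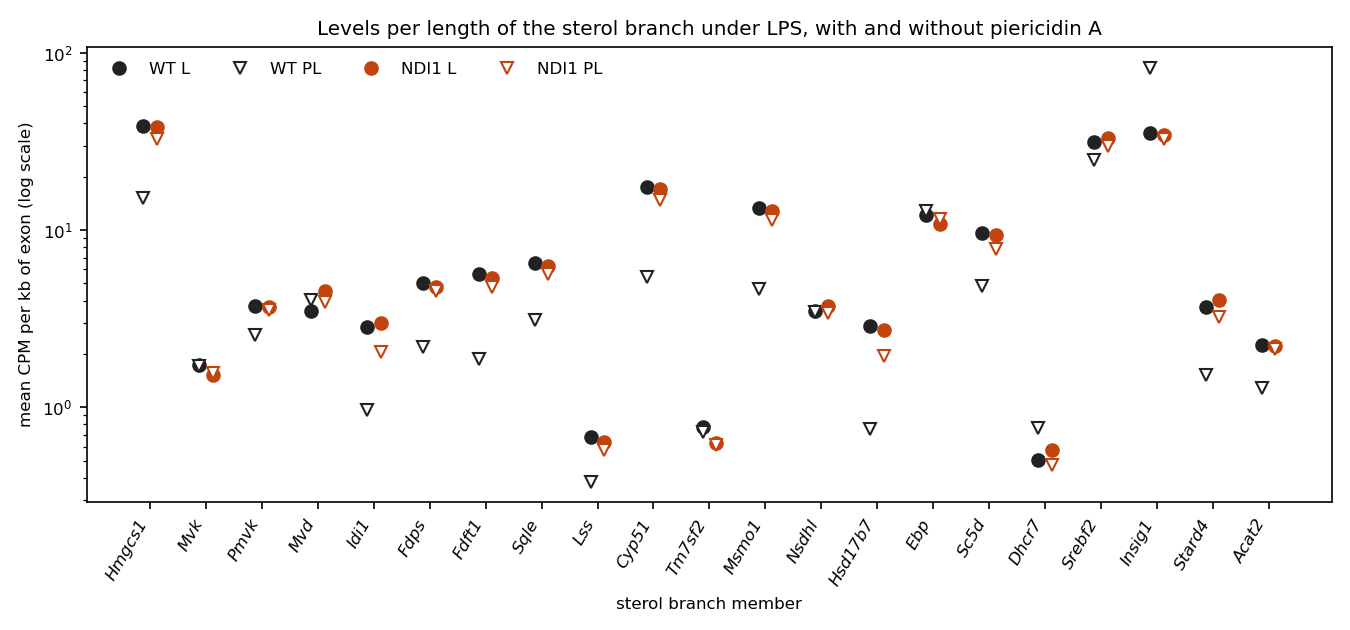
Mean TMM-normalized CPM per kb of exon (y axis, log scale; n = 5) of the 21 sterol branch members (x axis) with LPS (filled circles) and with LPS plus piericidin A (open triangles), black WT and orange NDI1. The WT triangle lies well below the other 3 symbols for Hmgcs1, Idi1, Fdps, Fdft1, Cyp51, Msmo1 and Hsd17b7, above them for Insig1, and close to them for Mvk, Ebp, Nsdhl and Tm7sf2.

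Among 9 genes of SREBP processing and transcription outside the set (Scap, Insig2, Mbtps1, Mbtps2, Rnf139, Nfya, Nfyb, Nfyc and Sp1), LPS raised 2 and lowered 1 in WT cells, against 31.5% and 31% of all tested genes. Rnf139, a ubiquitin ligase of the ER, rose by 2.22 (adjusted p = 1.96e-18) and the NF-Y subunit Nfyb by 1.14 (1.19e-08), while the protease gene Mbtps1 fell by 0.47 (2.33e-05). With the block Scap was also called higher with LPS (0.25, adjusted p = 0.0108). Piericidin A alone lowered Mbtps1 (−0.33 ± 0.089 (SE), adjusted p = 0.0116) and no other gene of this list (7.79% of all genes higher and 7.05% lower). With the block it also lowered Scap (−0.29, adjusted p = 0.00949) and raised Insig2 (0.35, 0.015), each in 5 of 5 mice. Under LPS, piericidin A raised Insig2, the second ER retention gene, from a range of 20.1 to 23.5 CPM with LPS to one of 24.7 to 53.1 CPM with both (0.80 ± 0.15 (SE), adjusted p = 3.34e-04), with no overlap. It lowered the NF-Y subunit Nfya (−0.38 ± 0.11 (SE), adjusted p = 0.0163), against 7.81% of all genes higher and 8.92% lower. With the block 5 of the 9 were lower, with Mbtps1, Nfyb, Nfyc and Sp1 added (blocked adjusted p of 0.00798 to 0.0391; 18.9% of all genes lower). In NDI1 cells none of the 9 was called for either piericidin A comparison, and under both agents Insig2 was lower in NDI1 than in WT cells (−0.68 ± 0.15 (SE), adjusted p = 0.00245) and Nfya higher (0.34 ± 0.11 (SE), adjusted p = 0.0423). For piericidin A under LPS in WT cells, Scap itself had a log2 fold change of −0.14 ± 0.14 (SE), adjusted p = 0.495.

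Of 18 further sterol and fatty acid genes, LPS raised 2 and lowered 8 in WT cells, with Acsl3, an acyl-CoA synthetase (−2.04), and Soat1, which esterifies cholesterol (−1.11), among those that fell (31.5% and 31% of all tested genes rose and fell), and with the block Me1, Cyb5r3 and Tecr were also called higher. Piericidin A alone raised 3 (Mid1ip1, Por and Soat1) and lowered 2 (Aacs and Cyb5b), against 7.79% and 7.05% of all genes. Under LPS it raised 3 (Elovl5, Por and Soat1) and lowered 4 (Aacs, Ggps1, Elovl1 and Cyb5b), against 7.81% and 8.92%. The block added Gpam as lower with piericidin A alone and, under LPS, Acsl3 and Mid1ip1 as higher and Hsd17b12 as lower. Soat1 rose with piericidin A both without LPS (0.43 ± 0.11 (SE), adjusted p = 0.00961) and with it (0.58 ± 0.12 (SE), adjusted p = 6.93e-04), and under both agents it was lower in NDI1 than in WT cells (−0.57 ± 0.12 (SE), adjusted p = 0.00122). Por, the electron donor of Cyp51 and squalene epoxidase, rose in the same comparisons by 0.71 and 0.49 while Cyp51 and Sqle had negative fold changes. Of 7 oxysterol and LXR genes none was called for piericidin A with or without LPS in the fit without the block. With the block, piericidin A alone lowered Abca1 (−0.38, adjusted p = 0.0395), Abcg1 (−0.42, 0.00955) and Lpcat3 (−0.34, 7.43e-04) in WT cells and raised Mylip (0.41, 0.0322), each in 5 of 5 mice (17.2% of all genes higher and 16.9% lower). Under LPS the block called Abca1 (−0.41, 0.0259) and Ch25h (−0.41, 0.0458) lower and Mylip (1.10, 7.31e-06) higher (15.6% of all genes higher and 18.9% lower). LPS raised 2 of them (Ch25h and Nr1h2) and lowered 1 (Mylip), and with the block Abcg1 and Lpcat3 were also called lower (36.4% of all genes higher and 35.6% lower). The level of Ch25h, the enzyme of 25-hydroxycholesterol, was 0 to 0.318 CPM in untreated WT cells, from 0 to 5 counts a library, and 37.9 to 108.0 CPM with LPS. With LPS plus piericidin A it was 30.8 to 92.0 CPM (−0.42 ± 0.35 (SE), adjusted p = 0.429).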

How the data were processed

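RNA from 40 cultures of mouse BMDMs was sequenced after polyA selection (NEBNext Ultra). The deposited counts were made by the authors with bcl2fastq, Trimmomatic, STAR (mm10) and HTSeq, which counted reads in exons of genes. Trimmomatic was version 0.39, and the other tool versions, annotation release and strand setting are not given in the sources used here, so genes that overlap another are less certain (11 of the 32 do, 4 of them over more than 10% of their exon bases). A column of reads not assigned to a library was left out of all comparisons. Groups came from the labels, with 5 mice per genotype and 4 treatments per mouse.

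The members and the other gene lists were chosen with earlier results of these data known, and some genes of the other lists are not reported here. Raw counts were tested with edgeR 4.0.16 in R 4.3.3 (quasi-likelihood test, TMM factors, filterByExpr by group, 1 mean per group over all 40 libraries, Benjamini-Hochberg adjustment over 11853 genes, threshold 0.05). CPM are TMM-normalized, and log2 CPM used a prior count of 2. The test and its code were first run on simulated data. Values in every sample are given for Srebf1, Srebf2 and Insig1 and, per branch, for up to 5 called members with the largest change for piericidin A under LPS in WT cells and up to 3 for LPS, and for members called against their branch; Hmgcs1, Fasn and Acaca were added after their values were seen.

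Mouse numbers in the labels' titles mark cultures of 1 mouse. Deviations from group means correlated at 0.453 on average over 60 pairs of libraries of the same mouse (0.0995 to 0.769) and at −0.107 over 240 pairs of different mice, so the fit with the mouse as a block is given beside a result where it changes it. A block cannot compare genotypes within a treatment, since each mouse has 1 genotype. Alternatives were DESeq2 1.42.0, RLE factors, no filter, at least 10 counts in every library, only the compared libraries, the block, and leaving out each mouse. Leaving out mice 496 and 503, and the block with a mouse left out, were chosen after seeing the data. No pair of replicates agreed within sampling noise (80 pairs, lowest chi-square per degree of freedom 9.36). Gene lengths are exon unions of GENCODE M21 on GRCm38, and promoters are RefSeq GRCm38.p6.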

Additional observations from a re-analysis of the deposited data

Results flagged for a closer look

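In 7 of 112 groups of 5 libraries, 1 library lay far from the other 4 by Dixon's test, which flags about 1 in 20 groups by chance. Mouse 452 had 85.0 CPM of Srebf1 in untreated WT cells (nearest 81.3), 44.1 CPM of Cyp51 (nearest 22.0) and 54.3 CPM of Msmo1 (nearest 28.5) in WT cells with LPS plus piericidin A. Mouse 521 had 6.22 CPM of Idi1 (nearest 2.56), 14.4 CPM of Lpin1 (nearest 28.2) and 7.73 CPM of Mvk (nearest 6.72) in untreated NDI1 cells. Mouse 461 had 76.2 CPM of Fads1 in NDI1 cells with piericidin A (nearest 60.7). The response of Insig1 to piericidin A without LPS differed between the genotypes in the edgeR quasi-likelihood test of the difference, by −2.55 on the log2 scale (NDI1 minus WT, adjusted p = 0.0209).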

How the results depend on the processing

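Of 144 gene results, 60 were called. Of these, 39 stayed called under all alternatives counted and 21 lost the call under at least 1, 32 uncalled results were called under at least 1, and 0 changed sign while called. The counted alternatives leave out the fits with the block and mice left out. An alternative that did not test a gene was skipped for it. The replicate block (mouse) moved the members called from 14 to 22 for LPS in NDI1 cells, from 3 to 18 for piericidin A in WT cells, from 0 to 12 for the difference between genotypes under LPS, from 1 to 4 for that difference without LPS, and from 2 to 14 for piericidin A with against without LPS in WT cells. It changed the count of no other comparison by over 1.5 times. With only the compared libraries, 9 in place of 14 members were called for LPS plus piericidin A against LPS in WT cells and 4 in place of 10 for NDI1 against WT under both agents. DESeq2 called 1 in place of 0 members for the difference under LPS and 2 in place of 1 for NDI1 against WT under piericidin A. For piericidin A with against without LPS, no filter on low counts and the filter of at least 10 counts both gave 1 in place of 2. Without mice 496 and 503 that count was 1, and the count for the difference without LPS was 0.

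Leaving out 1 mouse gave 7 (without mouse 520) to 15 members for LPS plus piericidin A against LPS in WT cells, 0 to 1 for the difference under LPS, 0 to 1 for the difference without LPS, 1 (without mouse 496 or mouse 520) to 3 for piericidin A with against without LPS, and 1 to 2 for NDI1 against WT under piericidin A. With the block the difference under LPS gave 10, 12, 12, 11, 10, 9, 9, 10, 7 and 8 members without mice 447, 449, 452, 453, 460, 461, 496, 503, 520 and 521 in turn, and 8 without both 496 and 503. The shares of all genes called in these blocked fits are not given. The cause of these changes was not tested beyond the libraries each alternative left out. With 5 mice per genotype, p-values without the block rest on the spread between libraries of a group, pooled over the groups of a fit. They treat the cultures of a mouse as independent. P-values with the block rest on the spread that remains after each mouse's own level is removed. Members with few counts (Lpin1 with LPS, Fads2, Elovl6, Scd1) are limited by depth.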
